A study of Homo sapiens with 8 samples.

Results

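The 9 Cajal body RNAs described here are SCARNA2, SCARNA5, SCARNA6, SCARNA7, SCARNA9, SCARNA10, SCARNA12, SCARNA13, and SCARNA15, taken by gene name from the 57756 genes listed in each library. They were chosen with their counts and their ratios of RIP to input known, so those values are given as a description. No p is given for them, and the calls of the fit across all genes are only counted. RNA pulled down with an antibody to RPS6, which belongs to the small subunit of the ribosome, was sequenced beside RNA of the same lysate without immunoprecipitation (input). This was done for Hep3B (HCC), HCT116 (colon cancer), DU145 (prostate cancer), and SW1990 (pancreatic cancer) cells, established lines that carried no further treatment or allele in the labels. Each line had 1 RIP and 1 input library, 8 libraries in all, so no pair had a replicate within its line. The titles of the liver pair and the methods name Hep3B, while its cell line field names Huh7. The pair is called Hep3B here.

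Small Cajal body-specific RNAs (scaRNAs) guide the chemical modification of the small nuclear RNAs of the spliceosome. They work in the Cajal body, a nuclear compartment that is held together by the scaffold protein coilin. A box C/D RNA carries fibrillarin and directs 2′-O-methylation, a box H/ACA RNA carries dyskerin and directs pseudouridylation, and composite scaRNAs hold both kinds of domain. Most human scaRNAs are cut out of the introns of host genes.

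Fragments per library numbered between 34630231 and 54209591, and were recovered from the deposited estimated counts by dividing each library by the value of 1 fragment in it. The 4 liver markers AFP, ALB, APOH, and FGB were each above 1 FPKM in both Hep3B libraries. Of the markers CDH17, CDX2, VIL1, and GPA33 of the colon, only CDX2 reached 1 FPKM in HCT116 cells, and it was higher in SW1990 cells. Of the prostate markers, KLK3 and HOXB13 were at 0 FPKM in both DU145 libraries. Of the markers KRT7, KRT19, MUC1, and S100P of the pancreatic duct, KRT19 was high in all lines and KRT7 and MUC1 were highest in DU145 cells. All named markers of the labelled tissue were thus above 1 FPKM in Hep3B cells, whereas those named for the other lines were under 1 FPKM in a library of the labelled line or higher in another line.

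The 9 names are the counted part of a larger family. The tables held 54 entries under 23 SCARNA names, and the member names alone had 12 entries, because SCARNA6 and SCARNA15 were listed more than once. The 3 further entries held at most 2 fragments in any library and were left out. The member with the fewest counts was SCARNA9, with a mean estimated count of 24.2 over the 8 libraries, and the next name below it was SCARNA22, with 2.40. The 42 entries under other names held 57 fragments in the 4 inputs together and 14 in the 4 RIP libraries, and 27 of them were at 0 throughout.

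RNA length separated most members from the rest of the family, a feature that the choice of members did not use. RefSeq (GRCh38.p14) gave lengths for 22 of the 23 names. All members but SCARNA15 measured between 266 bases (SCARNA6) and 420 bases (SCARNA2), whereas 12 of the 13 other names were shorter, with a median of 137 bases over the 13. The exception among the others was SCARNA17, 421 bases long, with 25 fragments in the inputs. SCARNA15, with 127 bases, was the exception among the members. Whether the library preparation retained short RNAs less well was not tested.

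Every member except SCARNA2 lay inside another gene. SCARNA2 was listed on its own at chr1:109642814-109643241 of hg19. For the other 8, the deposited locus was that of a whole cluster of overlapping genes, and RefSeq places SCARNA5 and SCARNA6 within ATG16L1, SCARNA7 within KPNA4, SCARNA9 within CEP295 (listed as KIAA1731), SCARNA10 within NCAPD2, SCARNA12 within PHB2, SCARNA13 within SNHG10, and SCARNA15 within SNHG21 and FSD2. Exon or intron was not read from these tables. The member sequences are not shown, and sequence is given instead for the starts of 2 host loci whose genes are compared with their scaRNAs further on. The first is the stretch between the divergent starts of SNHG10, host of SCARNA13, and GLRX5, both listed on the SCARNA13 locus. It is chr14:95534873-95535049 of GRCh38.p14, 177 bases on the minus strand, read toward SNHG10. Capitals mark the motif ATTGG, which was searched on both strands, is known as the CCAAT box, and occurs 3 times. The second is the 100 bases before the start of ATG16L1, which hosts 2 members, at chr2:233251573-233251672 on the plus strand. Capitals there mark CCGGAAG, an ETS motif, which occurs once. It lies on the other strand, so the printed strand reads CTTCCGG.
SNHG10 and GLRX5: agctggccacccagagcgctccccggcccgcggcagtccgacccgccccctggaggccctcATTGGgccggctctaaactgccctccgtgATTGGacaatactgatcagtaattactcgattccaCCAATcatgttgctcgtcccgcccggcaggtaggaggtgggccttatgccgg
ATG16L1: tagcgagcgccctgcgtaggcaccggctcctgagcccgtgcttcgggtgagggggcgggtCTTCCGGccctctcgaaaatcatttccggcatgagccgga
On either strand, ATTGG was found in 32.0% and CCGGAAG in 8.52% of the 250-base windows before the starts of 35116 genes. A window with ATTGG was thus common, and one with CCGGAAG less so. These windows are longer than the printed stretches of 177 and 100 bases. The shares count windows that hold the motif, so they do not give the rate of 3 matches in a stretch.

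Across the lines the Cajal body RNAs were mostly depleted from the RPS6 RIP, except in SW1990 cells. Summed over the 9 RNAs, the input of Hep3B cells held 11574 fragments and the RIP 501. The sums were 2022 and 201 in HCT116 cells, and 8482 and 439 in DU145 cells. In SW1990 cells they were 693 and 788. Corrected for library totals, the sum was 22.3-fold lower in the RIP of Hep3B cells, 9.40-fold lower for HCT116, and 13.1-fold lower for DU145, but for SW1990 the ratio of RIP to input was 1.09, with a 95% counting interval of 0.987 to 1.21 that holds 1. The RIP libraries of SW1990 cells and of the other lines were thus less far apart than the inputs, which ran from 18.7 fragments per 1000000 (FPM) for SW1990 to 323 for Hep3B, against 4.72 (HCT116) to 20.5 (SW1990) in RIP. Intervals of a ratio are exact binomial intervals on the fragments of a pair, and they cover counting error only, because fragments are not independent molecules.

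Of the 9 members, 6 were called lower in RIP by edgeR and 0 higher, where 24.9% of all 19921 genes tested were called lower and 51.4% in either direction. Since the members were chosen with this comparison in view, nothing is read from that count. The 6 were SCARNA2, SCARNA6, SCARNA7, SCARNA10, SCARNA13, and SCARNA15. The count rested on single pairs. Without the Hep3B pair 3 of 8 tested members were called lower, beside 26.3% of all genes tested. Without the HCT116 or the DU145 pair 4 were, beside 21.5% and 20.8% of all genes. Without the SW1990 pair all 9 were, beside 21.6%. Without the cell line as a block the only member called lower was SCARNA7, beside 6.75% of all genes. In Hep3B, HCT116, and DU145 cells the ratio was below 1 for 9 of 9 members, with counting intervals wholly below 1. In SW1990 cells it was below 1 for 3 members and above 1 for 5, and SCARNA6 had no fragments in either library. The fold changes of edgeR, scaled by TMM, had a median of -0.05 (log2) over all genes tested, whereas log2 ratios on library totals had a median of -0.30 for Hep3B, -0.51 for HCT116, -0.34 for DU145, and -0.36 for SW1990. Ratios within a line, which used the totals, therefore ran lower than the fitted fold changes, and the median member of SW1990 cells, at 0.08, lay above the median gene of that pair.

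**Figure D1:**
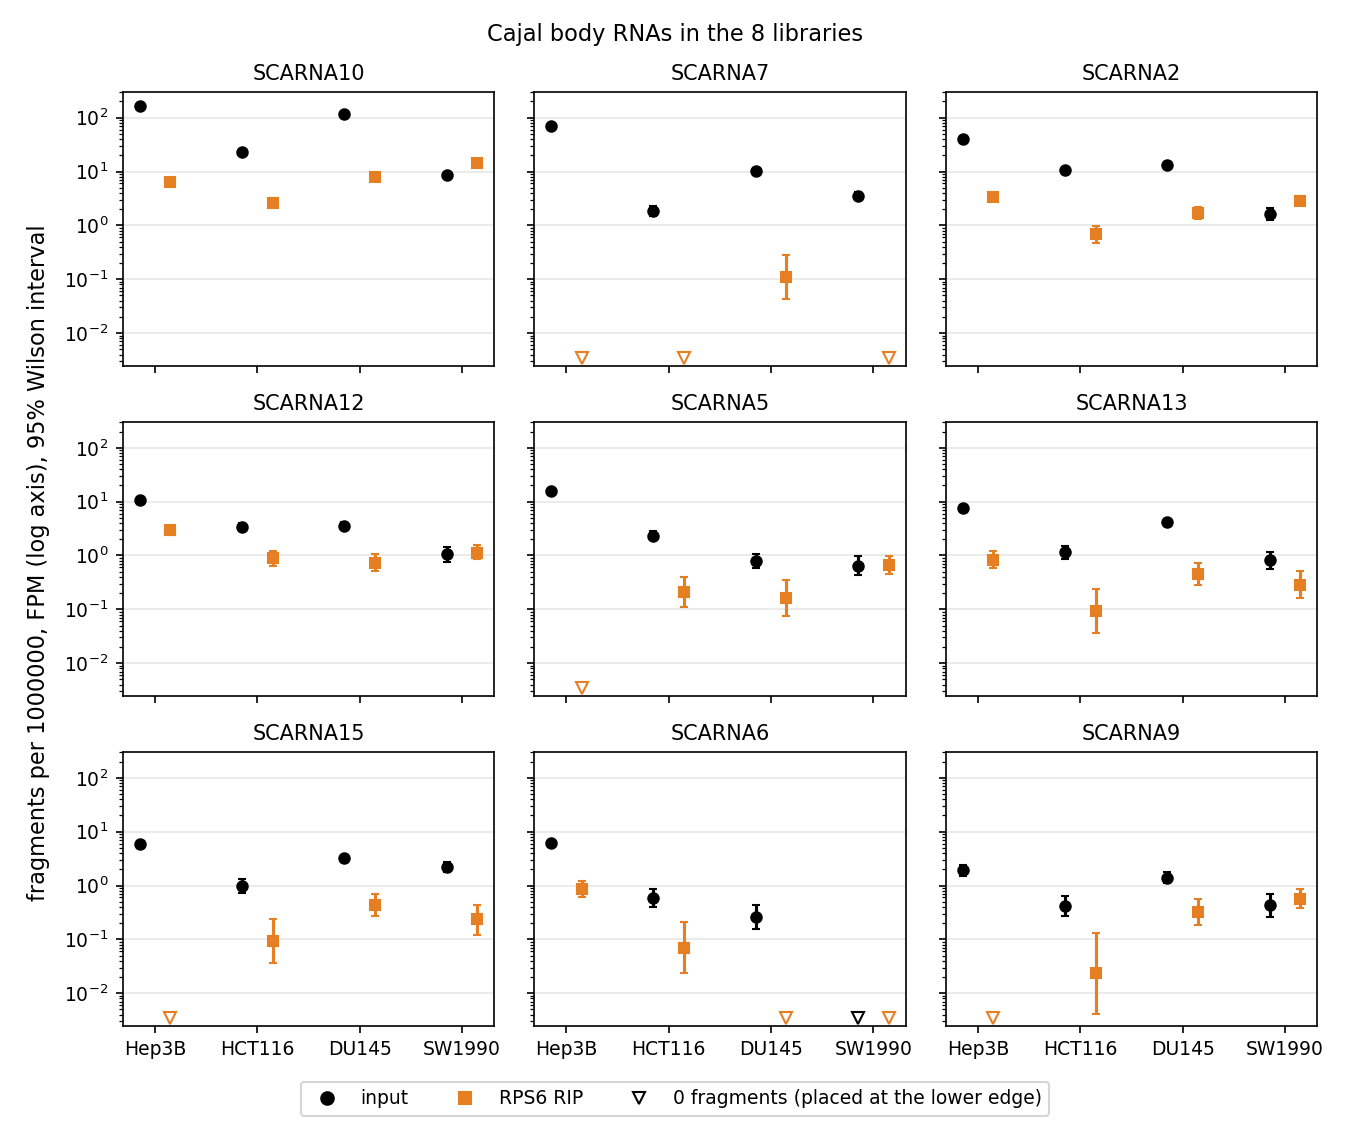
Level of each Cajal body RNA in the 8 libraries, in FPM on a log axis, with 95% Wilson intervals, inputs as black circles and RIP as orange squares. Open triangles at the lower edge stand for 0 fragments. At the positions of Hep3B, HCT116, and DU145 cells, every RIP point lies below its input, whereas for SW1990 SCARNA2, SCARNA5, SCARNA9, SCARNA10, and SCARNA12 lie higher in RIP.

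The composite RNAs were the most abundant group only through SCARNA10, which alone made up between 45.3% and 76.4% of the member fragments of an input. Without it, the composite members held fewer input fragments than the C/D members in each line. SCARNA10 (U85) guides both kinds of modification on the U5 small nuclear RNA. It gave 5869 fragments in input against 224 in RIP for Hep3B, 1045 against 113 for HCT116, 6481 against 294 for DU145, and 314 against 565 for SW1990. Input and RIP values overlap because of SW1990 cells, which had the lowest input and the highest RIP value. The level in RIP was 25.3-fold lower than in input for Hep3B (95% interval 22.2 to 29.1), 8.65-fold lower for HCT116 (7.12 to 10.6), and 14.96-fold lower for DU145 (13.3 to 16.9). In SW1990 cells it was higher in RIP, with a ratio of 1.73 (1.507 to 1.995). The mean log2 ratio of RIP to input was -2.72 ± 2.43 (SD, n = 4 cell lines), so the spread between lines was nearly as large as the mean.

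SCARNA12 (U89), a composite RNA within the gene of the mitochondrial prohibitin PHB2, had the mean log2 ratio nearest to 0 of the 9. Its fragments numbered 386 in input against 102 in RIP for Hep3B, 154 against 38 for HCT116, 194 against 27 for DU145, and 39 against 44 for SW1990. It was 3.65-fold lower in RIP for Hep3B, 3.79-fold for HCT116, and 4.93-fold for DU145, with intervals that overlap, while the SW1990 ratio was 1.08 (0.690 to 1.72). The mean log2 ratio was -1.48 ± 1.08 (SD, n = 4). Its locus was listed with 11 other genes, and its estimated fragments were not whole numbers, so fragments were shared out between overlapping genes there.

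SCARNA5 (U87) and SCARNA6 (U88) are composite RNAs that lie in the same host, ATG16L1, and they did not run in parallel. SCARNA5 gave 574 fragments in input against 0 in RIP for Hep3B, 106 against 9 for HCT116, 43 against 6 for DU145, and 24 against 26 for SW1990. In Hep3B cells it was at least 150-fold lower in RIP by its counting interval, and 185-fold lower with RIP set at a floor of 3 fragments. It was 11.01-fold lower for HCT116 (5.59 to 24.7) and 4.86-fold lower for DU145 (2.06 to 13.98), and the ratio for SW1990 was 1.04 (0.576 to 1.90). SCARNA6 had 221 against 30 fragments for Hep3B, 27 against 3 for HCT116, 14 against 0 for DU145, and 0 in both libraries of SW1990 cells. SCARNA6 was thus detected in the Hep3B RIP, where its neighbour SCARNA5 was not, although SCARNA5 had more fragments in the input. It was 7.13-fold lower in RIP in Hep3B cells (4.85 to 10.8), and its ratio in HCT116 cells was 0.119 (0.0231 to 0.386). In the SW1990 input SCARNA6 was not detectable, which does not exclude a level at the floor of 3 fragments.

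Of the box C/D members, SCARNA7 was depleted furthest of all 9. SCARNA7 (U90) guides methylation of the U1 small nuclear RNA and lies within KPNA4. It gave 2521 fragments in input against 0 in RIP for Hep3B, 85 against 0 for HCT116, 564 against 4 for DU145, and 129 against 0 for SW1990. Every RIP library lay below every input, as for 16.4% of all genes tested. With RIP set at the floor of 3 fragments, it was 813-fold lower in RIP for Hep3B, 26.5-fold for HCT116, and 44.7-fold for SW1990. The counting intervals of these pairs gave smaller lower bounds, of 661-fold, 21.1-fold, and 35.8-fold. For DU145 it was 95.7-fold lower (37.2 to 352). SW1990 cells did not stand apart for this RNA.

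SCARNA2 (mgU2-25/61) and SCARNA9 (mgU2-19/30), which guide methylation of the U2 small nuclear RNA, followed the pattern of SCARNA10. SCARNA2 gave 1446 fragments in input against 116 in RIP for Hep3B, 489 against 29 for HCT116, 706 against 63 for DU145, and 60 against 111 for SW1990. The SW1990 input was below 3 of the 4 RIP libraries in fragment number. In RIP it was 12.1-fold lower for Hep3B (9.98 to 14.7), 15.8-fold lower for HCT116 (10.8 to 23.8), and 7.604-fold lower for DU145 (5.87 to 10.003), and for SW1990 the ratio was 1.78 (1.29 to 2.48). SCARNA2 has no host gene in these tables, and no other listed gene shares its locus. Whether its values hold fragments of unlisted transcripts was not tested. SCARNA9 had 69 against 0 fragments for Hep3B, 19 against 1 for HCT116, 76 against 12 for DU145, and 16 against 22 for SW1990. For Hep3B it was at least 17.6-fold lower in RIP by its counting interval, and 22.3-fold lower with RIP set at the floor. It was 4.30-fold lower for DU145 (2.32 to 8.68), whereas the interval of the SW1990 ratio, 1.32 (0.664 to 2.70), holds 1. The mean log2 ratio of SCARNA2 was -2.41 ± 2.20 and that of SCARNA9 -3.08 ± 3.13 (SD, n = 4). The SCARNA9 mean rested on the Hep3B pair, whose RIP was at 0 fragments, and was -1.75 without that pair and -2.19 with 3 fragments as the lowest value.

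The H/ACA members SCARNA13 and SCARNA15 were lower in RIP in all 4 lines, SW1990 cells included. With SCARNA7 they made 3 members of 9 with that direction throughout, which 37.3% of all genes tested shared. SCARNA13 (U93), an RNA of tandem H/ACA domains, gave 276 fragments in input against 29 in RIP for Hep3B, 52 against 4 for HCT116, 230 against 17 for DU145, and 30 against 11 for SW1990. It was 9.21-fold lower in RIP for Hep3B (6.27 to 14.007), 12.2-fold for HCT116 (4.47 to 46.3), 9.18-fold for DU145 (5.61 to 16.0), and 2.83-fold for SW1990 (1.38 to 6.26). Its log2 ratio averaged -2.81 ± 0.91 (SD, n = 4), and it varied less between lines than the other members measured in all 4. SCARNA15 (ACA45) had 211 against 0 fragments for Hep3B, 45 against 4 for HCT116, 174 against 16 for DU145, and 82 against 9 for SW1990. Every RIP library lay below every input, as for SCARNA7. For Hep3B it was at least 54.9-fold lower in RIP by its counting interval, and 68.1-fold lower with RIP set at the floor. It was 10.5-fold, 7.24-fold, and 9.10-fold lower for HCT116, DU145, and SW1990 cells.

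The identity of the SCARNA15 signal is less certain than that of the others. A median of 113 estimated counts corresponded to 1 FPKM for SCARNA15, 12.2 times as many as for SCARNA2, although RefSeq gives it 127 bases against 420. The deposited gene model of SCARNA15 was therefore longer than the mature RNA. Genes FSD2 and RP11-752G15.6, listed on the same locus, had 212 and 172 fragments in the Hep3B input, 47 and 81 in the HCT116 input, 184 and 172 in the DU145 input, and 100 and 166 in the SW1990 input, of the same order as those of SCARNA15. Both were lower in RIP in 4 of 4 lines, with log2 fold changes of -2.32 (SE 0.54, adjusted p = 0.00479, edgeR) and -2.95 (SE 0.52, adjusted p = 0.000787, edgeR). Reads of these overlapping genes and of SCARNA15 cannot be told apart here.

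**Figure D2:**
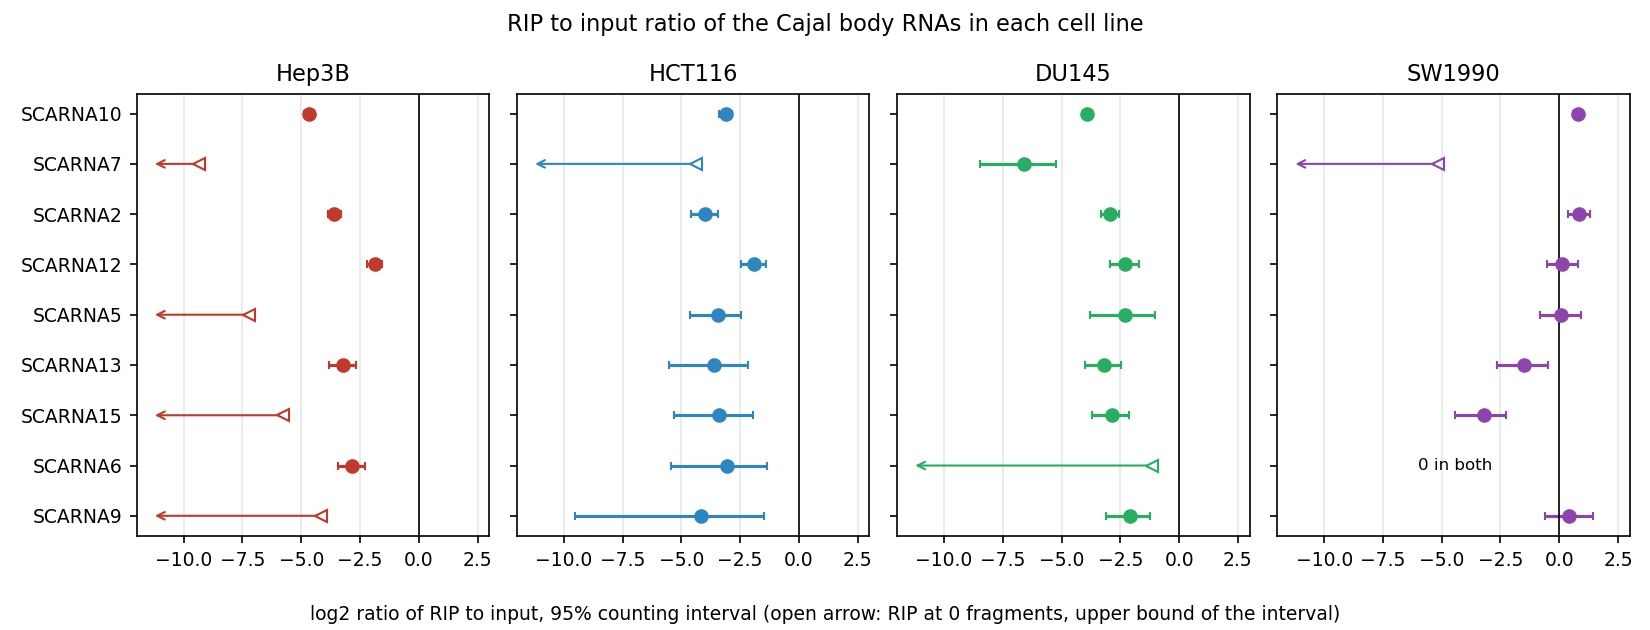
Log2 ratio of RIP to input for each Cajal body RNA, 1 panel per cell line, with 95% counting intervals. Where RIP held 0 fragments, the open triangle marks the upper bound of the interval and the arrow points to lower values. All points lie left of 0 for Hep3B, HCT116, and DU145 cells. In SW1990 cells SCARNA7, SCARNA13, and SCARNA15 lie left of 0, SCARNA2 and SCARNA10 lie right of it with their intervals, and SCARNA5, SCARNA9, and SCARNA12 lie right of it with intervals that hold 0.

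Grouped by box class, the summed H/ACA members were 5.71-fold lower in the RIP of SW1990 cells, and the C/D members 1.60-fold lower, while the composite members had a ratio of 1.62 (1.43 to 1.85). The C/D sum was lower through SCARNA7, since SCARNA2 and SCARNA9 had ratios above 1, and SCARNA15, whose reads cannot be told apart from those of overlapping genes, gave 82 of the 112 input fragments of the H/ACA sum. In the same cells SCARNA10 accounted for 71.7% of all member fragments in RIP, against 45.3% in the input. Without SCARNA10 the sum in SW1990 cells was 1.77-fold lower in RIP, with a ratio of 0.566 (0.478 to 0.670). The sum in SW1990 cells thus turned its direction with 1 RNA. In the other lines the sum without SCARNA10 remained lower in RIP, by 19.9-fold for Hep3B, 10.4-fold for HCT116, and 9.36-fold for DU145.

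The levels per length, in FPKM, ordered the members much as the fragments did, apart from SCARNA15, with SCARNA10 first in each input. SCARNA10 stood at 1359 FPKM in the Hep3B input, 187 for HCT116, 1264 for DU145, and 85.3 for SW1990. In the SW1990 input SCARNA15 had 82 fragments but 0.704 FPKM, 8th of the 9, against 60 fragments and 6.26 FPKM for SCARNA2. SCARNA7 came second for Hep3B (516 FPKM), DU145 (71.1 FPKM), and SW1990 cells (26.0 FPKM), and 5th of the 9 in HCT116 cells. In HCT116 cells the second was SCARNA2, with 40.8 FPKM, ahead of SCARNA12 with 35.4 FPKM. SCARNA9 was among the 3 lowest in all 4 inputs, at between 2.11 and 10.1 FPKM. FPKM of RNAs this short depend on the length that the software assigned. For SCARNA10 the estimated count per FPKM was 0.379 of that of SCARNA2, a smaller share than their lengths of 330 and 420 bases give. Levels were set across 2 deposited tables, of which the first held the Hep3B and HCT116 libraries and the second those of DU145 and SW1990 cells. DU145 and SW1990 cells thus differed within 1 table.

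The host genes did not all share the depletion of their scaRNAs. NCAPD2, a condensin subunit that hosts SCARNA10, rose in RIP by a log2 fold change of 2.28 (SE 0.25, adjusted p = 4.2e-05, edgeR) and was higher in 4 of 4 lines. Its log2 ratio was 1.61 for Hep3B, 2.34 for HCT116, 1.61 for DU145, and 2.15 for SW1990. In SW1990 cells, where SCARNA10 was higher in RIP as well, the ratio of SCARNA10 still lay under that of its host, with a log2 difference (member minus host) of -1.36, and in the other lines the difference was between -6.27 and -5.45. Exon and intron reads were not separated here, so the member and host counts are not shown to be separate measurements. Whether reads of the host transcript entered the scaRNA counts was not tested.

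ATG16L1, which encodes an autophagy protein, was higher in RIP by a log2 fold change of 0.75 (SE 0.19, adjusted p = 0.00656, edgeR), with SCARNA5 and SCARNA6 below it in every line where they were measured. PHB2 was higher by 0.58 (SE 0.22, adjusted p = 0.0455, edgeR), in 3 of 4 lines. SCARNA12 lay below it in Hep3B, HCT116, and DU145 cells and above it in SW1990 cells, with a log2 difference of 0.41. The importin gene KPNA4 was lower by a log2 fold change of -0.93 (SE 0.18, adjusted p = 0.00166, edgeR), in 4 of 4 lines, and SCARNA7 lay below it in each. The log2 difference was -4.81 for DU145, and the other lines, with SCARNA7 at 0 fragments in RIP, give only a bound. KIAA1731 (CEP295), a centriole protein gene, had a log2 fold change of 0.00 (SE 0.26, adjusted p = 0.996, edgeR). SCARNA9 lay below it in 3 lines and above it in SW1990 cells, by 0.88.

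SNHG10, the noncoding host of SCARNA13, was with KPNA4 one of the hosts called lower. It was lower in RIP by a log2 fold change of -2.41 (SE 0.26, adjusted p = 4.3e-05, edgeR), with log2 ratios between -2.86 and -2.61 in the 4 lines. SCARNA13 and SNHG10 differed by -0.06 ± 0.89 (log2 units, member minus host, SD, n = 4), so scaRNA and host could not be separated beyond the spread between lines. SCARNA13 lay below its host in 3 lines and above it in SW1990 cells, by 1.22. The protein-coding neighbour GLRX5, a mitochondrial glutaredoxin gene whose start lies across the promoter stretch printed above, was lower by -1.07 (SE 0.20, adjusted p = 0.00129, edgeR), also in 4 of 4 lines. Of the 6 host genes compared, 3 were called higher and 2 lower, where 26.5% of all genes tested were called higher and 24.9% lower. The 6 leave out the genes around SCARNA15, which RefSeq places within SNHG21 and FSD2, and of these FSD2 was called lower. Of all 19 tested genes that share a locus with a member, the hosts included, 3 were higher and 10 lower, with a median log2 fold change of -0.72, against -0.05 over all genes.

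**Figure D3:**
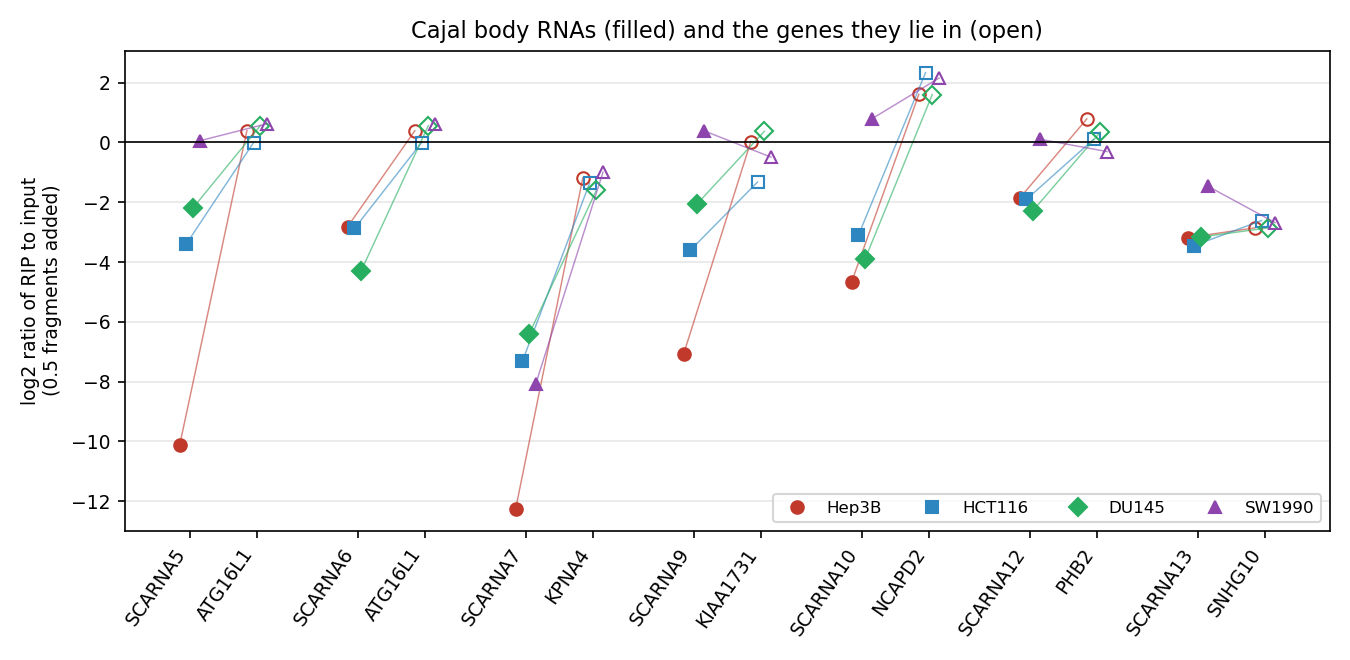
Log2 ratio of RIP to input, with 0.5 fragments added to both, of 7 Cajal body RNAs (filled symbols) and of their host genes (open symbols), joined within each cell line. SCARNA2 and SCARNA15 are not shown. NCAPD2 lies above 0 in all 4 lines and SCARNA10 below NCAPD2, whereas in SW1990 cells SCARNA9, SCARNA12, and SCARNA13 lie above their hosts; where RIP held 0 fragments the filled point is set by the added 0.5.

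The proteins that assemble with scaRNAs were measured through their mRNAs, which were not used to choose the members. The gene lists themselves were chosen with earlier results of these data known. Of the 7 H/ACA ribonucleoprotein genes, 1 was higher in RIP, 2 were lower, and 4 did not pass the test, with a median log2 fold change of -0.54. Of all genes tested, 26.5% were called higher and 24.9% lower, 51.4% in either direction, so these counts are not read as a trait of the list. WRAP53, which encodes the protein (TCAB1) that carries RNAs with a CAB box to the Cajal body, was higher by 1.92 (SE 0.20, adjusted p = 2.9e-05, edgeR) and in 4 of 4 lines. GAR1 and NOP10, core proteins of the H/ACA particle, were lower by -2.24 (SE 0.45, adjusted p = 0.00201, edgeR) and -1.81 (SE 0.25, adjusted p = 0.000162, edgeR). The pseudouridine synthase gene DKC1 did not pass, at -0.36 (SE 0.19, adjusted p = 0.125, edgeR).

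Of the 9 C/D ribonucleoprotein genes, 1 was higher, 5 were lower, and 3 did not pass, with a median of -0.74, beside 26.5% higher and 24.9% lower of all genes. ZNHIT3 and ZNHIT6, assembly factors of the C/D particle, were lower by -2.29 (SE 0.25, adjusted p = 4.2e-05, edgeR) and -1.72 (SE 0.22, adjusted p = 0.000105, edgeR), and the core protein gene NOP58 by -1.38 (SE 0.22, adjusted p = 0.000452, edgeR). RUVBL2, an ATPase of the assembly machinery, was higher by 1.89 (SE 0.20, adjusted p = 3.8e-05, edgeR). FBL, which encodes the methylase fibrillarin, did not pass, at -0.08 (SE 0.19, adjusted p = 0.751, edgeR).

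Of the 20 genes of the Cajal body and the SMN complex, 3 were higher, 12 were lower, and 5 did not pass, with a median of -0.83. COIL, the gene of coilin, was lower by -2.24 (SE 0.22, adjusted p = 2.6e-05, edgeR), and PHAX, an export adaptor of small nuclear RNAs, by -2.62 (SE 0.25, adjusted p = 2.1e-05, edgeR). GEMIN4 and GEMIN5, which encode large subunits of the SMN complex, were higher by 2.72 (SE 0.22, adjusted p = 1.3e-05, edgeR) and 2.42 (SE 0.36, adjusted p = 0.000261, edgeR). All 4 held their direction in 4 of 4 lines. SMN1 and SMN2, both among the lower ones, are near-identical copies whose reads cannot be assigned with certainty. The shares called in these lists stand beside 26.5% higher and 24.9% lower of all genes, and 51.4% in either direction.

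**Figure D4:**
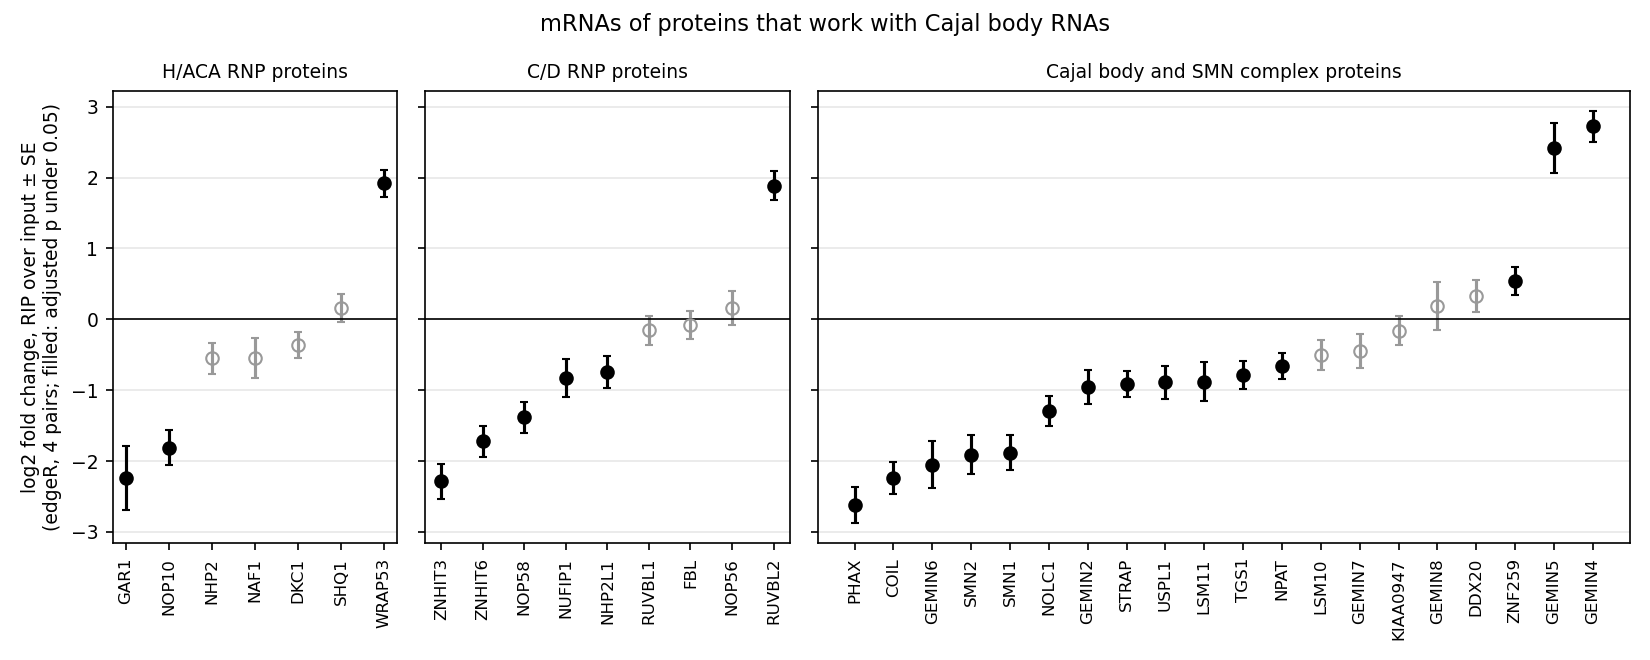
Log2 fold change of RIP over input with its standard error (edgeR, 4 pairs) for the mRNAs of H/ACA proteins, C/D proteins, and proteins of the Cajal body and SMN complex. Filled points passed an adjusted p of 0.05. WRAP53, RUVBL2, GEMIN5, and GEMIN4 stand near 2 or above, and PHAX, ZNHIT3, COIL, and GAR1 below -2.

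RMRP, an RNA outside the scaRNA family, showed the same split between SW1990 cells and the other lines. It and the 5 further nuclear RNAs named next were chosen for comparison after their values were seen. RMRP, which belongs to RNase MRP, had a log2 ratio of -6.41 for Hep3B, -3.93 for HCT116, and -4.02 for DU145, and a RIP to input ratio of 1.19 (1.15 to 1.23) for SW1990. TERC, the telomerase RNA, which carries an H/ACA domain and also resides in Cajal bodies, was lower in RIP in all 4 lines, by 2.93-fold for Hep3B, 7.65-fold for HCT116, 2.48-fold for DU145, and 1.73-fold for SW1990. RN7SK, RPPH1, MALAT1, and NEAT1 were lower in 4 of 4 lines as well. Among other small nucleolar RNAs, the 6 counted genes with H/ACA names had a median log2 ratio of -0.96 in SW1990 cells and the 10 with C/D names -1.16, against 0.08 for the Cajal body RNAs. In the other lines the Cajal body RNAs had the lowest median of the groups. It was -4.66 for Hep3B, against -1.31 (H/ACA) and -2.87 (C/D). For HCT116 it was -3.39, against -0.89 and -2.13, and for DU145 -2.92, against -0.27 and -2.55. These medians rest on few genes and were not tested.

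The inputs of Hep3B and SW1990 cells were also the highest and the lowest for 3 other small noncoding RNAs. RN7SK, the 7SK RNA that holds back a transcription factor, had 37339 FPM in the Hep3B input, 9523 for HCT116, 7029 for DU145, and 2142 for SW1990, and RPPH1, the RNA of RNase P, had 32951, 9085, 6717, and 1568. RMRP ran from 15602 in the Hep3B input to 161 in the SW1990 input. The HCT116 and DU145 inputs stood in the opposite order, since these 3 RNAs were higher in HCT116 cells and the summed members in DU145 cells. MALAT1 was highest in the DU145 input, at 8113 FPM, NEAT1 was lowest in the HCT116 input, at 252, and TERC was at 30.5 for DU145 and 31.3 for SW1990. In RIP, RN7SK ranged between 104 (HCT116) and 749 (Hep3B) FPM and RPPH1 between 78.1 and 240.5. The part of this difference between inputs in the member ratios was not tested.

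**Figure D5:**
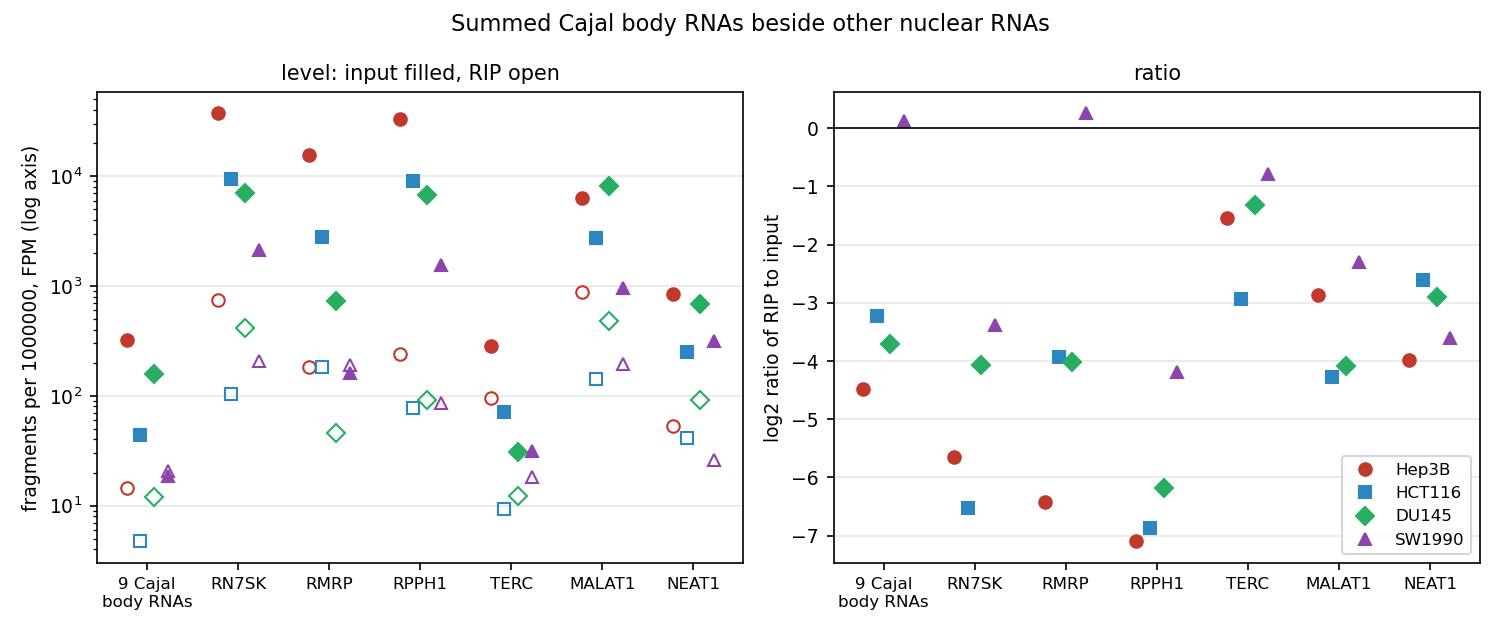
Left, FPM on a log axis for the 9 Cajal body RNAs summed and for 6 other nuclear RNAs, input filled and RIP open. Right, their log2 ratios of RIP to input. In SW1990 cells the summed members and RMRP lie just above 0, and all other points lie below it.

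Over the 8 libraries, the profile of the summed members was set beside 19912 other genes by Pearson's r of log2(FPM + 0.05). The 5 most like it were RP11-819C21.1 (r = 0.951), MIR1302-9 (0.9496), PAWR (0.948), CTC-444N24.11 (0.944), and RP11-801F7.1 (0.944). The points are the same 8 libraries and share their depth and their pairing, and 78 genes reached an r of 0.9 or more. RP11-819C21.1 had 4.44 FPM in the Hep3B input and 0.433 in its RIP, and 0.540 and 0.779 in SW1990 cells, so it too was higher in RIP in SW1990 cells. PAWR, which encodes a pro-apoptotic protein, changed less than the members, from 117 to 59.4 FPM in Hep3B cells and from 78.2 to 65.6 in SW1990 cells.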

How the data were processed

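Libraries were made with a stranded total RNA kit, per the labels, and the authors aligned reads to hg19 with TopHat (TopHat2 2.0.9 in the processing notes). The counting program, its annotation and its strand setting are not given in the sources used here. The authors deposited FPKM, normalized for length and depth, and estimated counts, scaled by 1 factor per library and split between overlapping genes. Further deposited files hold the authors' own fold changes, p-values, and q-values, and were not used.

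Whole counts had been assumed in the design. The estimated counts were rounded for edgeR 4.0.16 in R 4.3.3 (quasi-likelihood test, TMM, cell line as a block, mean count of at least 10, Benjamini-Hochberg adjustment, threshold 0.05). The lines pair the libraries by design. P-values set the difference of RIP and input against its residual spread over the 4 cell lines, with dispersion estimated across genes. Each SE of edgeR was derived from the log2 fold change and the F statistic of the test. Dividing a library by its most frequent value above 0.3, the value of 1 fragment (0.673 to 1.27), turned 92.5% to 93.9% of the values up to 1000 fragments into whole numbers within 0.01. Ratios used these fragments over library totals, with 0.5 added for log2. A pair with 0 in both libraries gave no ratio. Intervals are 95% (exact for ratios, Wilson for shares), and the floor is 3 fragments. Some of the prostate markers are not reported here, so the tissue check of DU145 cells is partial. Members and gene lists were chosen with earlier results of these data known. Named genes were all members and hosts, in each protein list up to 4 genes with the largest change past the threshold, and the 5 genes of most similar profile, while other genes were chosen after their values were seen. RefSeq sequences, names, and lengths are of GRCh38.p14. The fits and intervals were tested on simulated data. Alternatives used DESeq2 1.42.0, limma 3.58.1, and other minimums, units, and subsets of lines. Other steps ran in Python 3.11.15 (pandas 2.3.3, NumPy 2.4.6, SciPy 1.17.1) and figures were drawn with matplotlib 3.10.9.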

Additional observations from a re-analysis of the deposited data

Results flagged for a closer look

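The 26 sets of 4 values searched were the input level, RIP level, and log2 ratio of each member over the lines. Of them, 7 held a value that lay far from the other 3 relative to the range, and 5 of these were Hep3B values. The cut-off gives about 1 in 20 by chance for independent, normally distributed values. The sets share the same 8 libraries and some hold zeros, so the count of 7 cannot be read against that rate. The Hep3B inputs of SCARNA5 (16.0 fragments per 1000000), SCARNA6 (6.17), and SCARNA7 (70.4) stood above the other inputs, and the Hep3B RIP of SCARNA6 (0.866) stood above the other RIP libraries. The log2 ratio of SCARNA15 in Hep3B cells, -8.68, was far below the others, with RIP at 0 fragments. The DU145 RIP of SCARNA7 (0.109 fragments per 1000000, 4 fragments) stood apart because the other 3 were at 0. The log2 ratio of SCARNA13 in SW1990 cells, -1.46, was nearer to 0 than in the other lines.

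In SW1990 cells the RIP to input ratios of SCARNA2 (1.78) and SCARNA10 (1.73) went the opposite way to the other 3 lines, with counting intervals wholly on the other side of 1. With 1 pair per line this difference was not tested.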

How the results depend on the processing

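Without the cell line as a replicate block, so that pairing was ignored, 1427 genes were called higher and 1344 lower in place of 5282 and 4960, and 1 member was called lower in place of 6. Under the same setting 3 C/D protein genes, 5 Cajal body and SMN complex genes, 2 host genes, and 4 genes sharing a locus with a member were called, in place of 6, 15, 5, and 13. Leaving out each pair in turn gave between 3 and 9 members called lower, where between 20.8% and 26.3% of all genes were. DESeq2 called 7 lower (27.1% of all genes tested), no minimum on counts 9 (14.8%), and a minimum of 50 counts 6 of 7 tested (30.4%). Limma on log2(FPKM + 1) called 5 (20.1%) and on log2(FPKM + 0.1) 4 (21%) of 8 tested. On the recovered fragments, an alternative added after the values were seen, edgeR called 6 (25.3%). Of 5 other SCARNA entries that passed the FPKM minimum, limma called 2 with either pseudocount. With log2(FPKM + 1), the mean log2 ratio moved from -3.33 to -2.14 for SCARNA6, from -8.51 to -5.69 for SCARNA7, and from -4.46 to -0.75 for SCARNA15. All 80 alternative values of the mean ratios stayed below 0, and 77 lay within 1 SD of the reported value. That SD is the spread between cell lines, as large as 4.38 for SCARNA5, so large shifts can lie within it. The SCARNA5 mean moved from -3.91 to -1.84 without the Hep3B pair and was counted as within 1 SD. The causes of these shifts were not tested. Members with fewer than 100 input fragments in a line are limited by depth. A RIP value of 0 does not exclude a level at the floor of 3 fragments.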
